A study of Mus musculus with 40 samples.

Results

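Expression of 10 genes that crosslink, scaffold or modulate the extracellular matrix was examined in mouse subcutaneous white adipose tissue. The genes were chosen by symbol for their function: the lysyl oxidases Lox, Loxl1, Loxl2 and Loxl3, the elastic fibre genes Eln and Fbn1, the fibronectin gene Fn1, and the matricellular genes Sparc, Thbs1 and Thbs2. They are 10 of the 34843 genes in the count table, and all 10 were among the 15807 genes that passed the filter on low counts. RNA was profiled by 3' tag sequencing in 40 libraries, 8 in each of 5 groups. The groups were mice fed ND, mice fed HFD, HFD-fed mice given semaglutide, HFD-fed mice given tirzepatide, and mice switched from HFD to ND, called the diet switch below. All groups except ND had thus received HFD. Semaglutide and tirzepatide are incretin analogs: semaglutide activates the GLP-1 receptor, and tirzepatide activates the GIP and GLP-1 receptors. The labels expand neither ND nor HFD and give no strain, sex, age, dose or duration. The series title places the dietary intervention after incretin treatment, while the labels of the diet-switch samples name only the change of diet. The labels do not say that each library came from a separate animal, and the p-values describe the scatter among these libraries, which may be partly technical.

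Lysyl oxidases are copper-dependent amine oxidases that oxidise lysine side chains of collagen and elastin, after which the chains link covalently and the matrix stiffens. Elastin is laid down on microfibrils built from fibrillin-1, and fibronectin forms the early matrix that guides collagen assembly. Matricellular proteins such as SPARC and the thrombospondins bind matrix and growth factors and tune how cells respond to them. In white adipose tissue this matrix surrounds each adipocyte and is remodelled as the depot expands or shrinks, and SPARC is known as a secreted adipose product linked to obesity.

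Promoter sequence was available for 3 of the 10 genes, Fbn1, Sparc and Thbs2, in the RefSeq table for GRCm38.p6, which holds 250 bases before and 50 after each start. Sparc and Thbs2 are printed because they differed from HFD in opposite directions under both drugs. The Sparc window is chr11:55420031-55420330 and the Thbs2 window is chr17:14694213-14694512, both on the minus strand and written 5′ to 3′ along the gene. The Sparc window lies wholly inside the GENCODE M21 span of the gene (chr11:55394500-55423183), so the RefSeq start used here differs from the GENCODE start. The same holds for Fbn1 (chr2:125300594-125507993). Capitals mark matches to CAGAC (the SMAD box, the short element bound by the factors that relay TGF-beta signals) or to TATAAA (the TATA box), each read on both strands, so that GTCTG and TTTATA are the same elements on the opposite strand.
Sparc: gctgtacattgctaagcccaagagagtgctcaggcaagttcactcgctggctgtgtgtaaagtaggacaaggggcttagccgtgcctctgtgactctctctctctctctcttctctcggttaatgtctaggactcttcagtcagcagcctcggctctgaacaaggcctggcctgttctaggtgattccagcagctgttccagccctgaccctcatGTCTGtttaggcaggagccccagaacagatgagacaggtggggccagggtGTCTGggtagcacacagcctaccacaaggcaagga
Thbs2: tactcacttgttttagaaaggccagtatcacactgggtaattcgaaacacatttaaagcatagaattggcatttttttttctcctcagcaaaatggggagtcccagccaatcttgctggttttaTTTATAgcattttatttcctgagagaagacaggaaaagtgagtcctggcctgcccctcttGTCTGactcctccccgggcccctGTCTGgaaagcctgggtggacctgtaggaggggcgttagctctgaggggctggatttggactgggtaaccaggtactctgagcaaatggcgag

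Each window held 2 matches to CAGAC. At least 1 match was held by 49.6% of the 32851 promoters in the table, and the share with 2 or more was not counted. The Thbs2 window also held 1 match to TATAAA, as did 13.6% of promoters, and the Sparc window held 0. Neither window matched CATTCC (TEAD sites, 14.7% of promoters), TGANTCA (AP-1 sites, 7.81%), or the hypoxia response cores ACGTG (19.6%) and GCGTG (32.4%), which can overlap other motifs. The Fbn1 window, chr2:125506389-125506688, matched none of the 6 motifs. GC content was 55.3% for Sparc, 48.3% for Thbs2 and 60.3% for Fbn1, against a median of 52.7% over all promoters. These matches describe the letters of each window and are not evidence of binding.

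Libraries held 2115471 to 7445548 counts with 19900 to 23774 genes detected. Adipocyte genes (Adipoq, Plin1 and 5 others) had mean levels of 10.07 to 11.58 log2 CPM in all 40 libraries, where CPM is a gene's count scaled to the library's total. Skeletal muscle genes (9 of 9 listed were in the table) varied far more. Their summed level ranged from 91.8 to 4334 CPM in ND, 37.4 to 1027 in HFD, 16.8 to 426 with semaglutide, 23.0 to 3082 with tirzepatide and 45.2 to 3822 after the switch. Their mean level was above 5 log2 CPM in 11 libraries, of which 5 were from tirzepatide (1, 2, 4, 5 and 7), 3 from the diet switch (1, 3 and 6), 2 from ND (6 and 8) and 1 from HFD (4). Of these genes, Myh2 was at 0 in 6 libraries, Myh1 in 4 and Tnni2 in 1. The 5 B cell genes (5 of 5 in the table) summed to at most 12.8 CPM in HFD, tirzepatide and diet-switch libraries, but to 477 CPM in ND library 5 and 540.4 CPM in semaglutide library 1. Semaglutide libraries 3 and 8 were also high, at mean levels of 5.50 and 5.54 log2 CPM, and each of the 5 genes was at 0 in 3 to 11 libraries. Diet-switch libraries 3, 4 and 7 stood apart on the first principal component of all tested genes (18.0% of the variance), at 85.4, 79.4 and 64.5, where the next library, tirzepatide 4, lay at 48.5. This component also followed the groups: HFD libraries lay at -61.1 to -4.65, ND at -41.2 to 8.96 and tirzepatide at 15.7 to 48.5. Leaving out diet-switch libraries 3, 4 and 7 thus removes those farthest from HFD and ND, which by itself favours fewer calls for the switch. Where a call of the 10 genes was lost without one of these 3 sets of libraries, its value without them is given. Counts for pathway lists are given with all libraries and, for some lists and comparisons only, without these sets of libraries. Their part in the results was not otherwise tested. In whole tissue, fewer cells of a type and less RNA per cell cannot be told apart.

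Compared with ND, the fitted difference in HFD was above 0 for all 10 genes, but 1 passed the test, Thbs1 (edgeR adjusted p under 0.05). This compares with 4.5% of all tested genes called. The median log2 fold change of the 10 genes was 0.40, beside -0.04 over all tested genes. Compared with HFD, 3 genes were called with semaglutide (Eln and Sparc lower, Thbs2 higher, against 4.15% of all tested genes), 4 with tirzepatide (Loxl2, Eln and Sparc lower, Thbs2 higher, against 20.5%) and 3 after the diet switch (Loxl2, Eln and Sparc lower, against 23.8%). The median log2 fold changes were -0.50, -0.64 and -0.44, beside 0.05, 0.03 and 0.03 over all tested genes. These 3 comparisons share the HFD libraries, which the comparison with ND also uses.

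**Figure D1:**
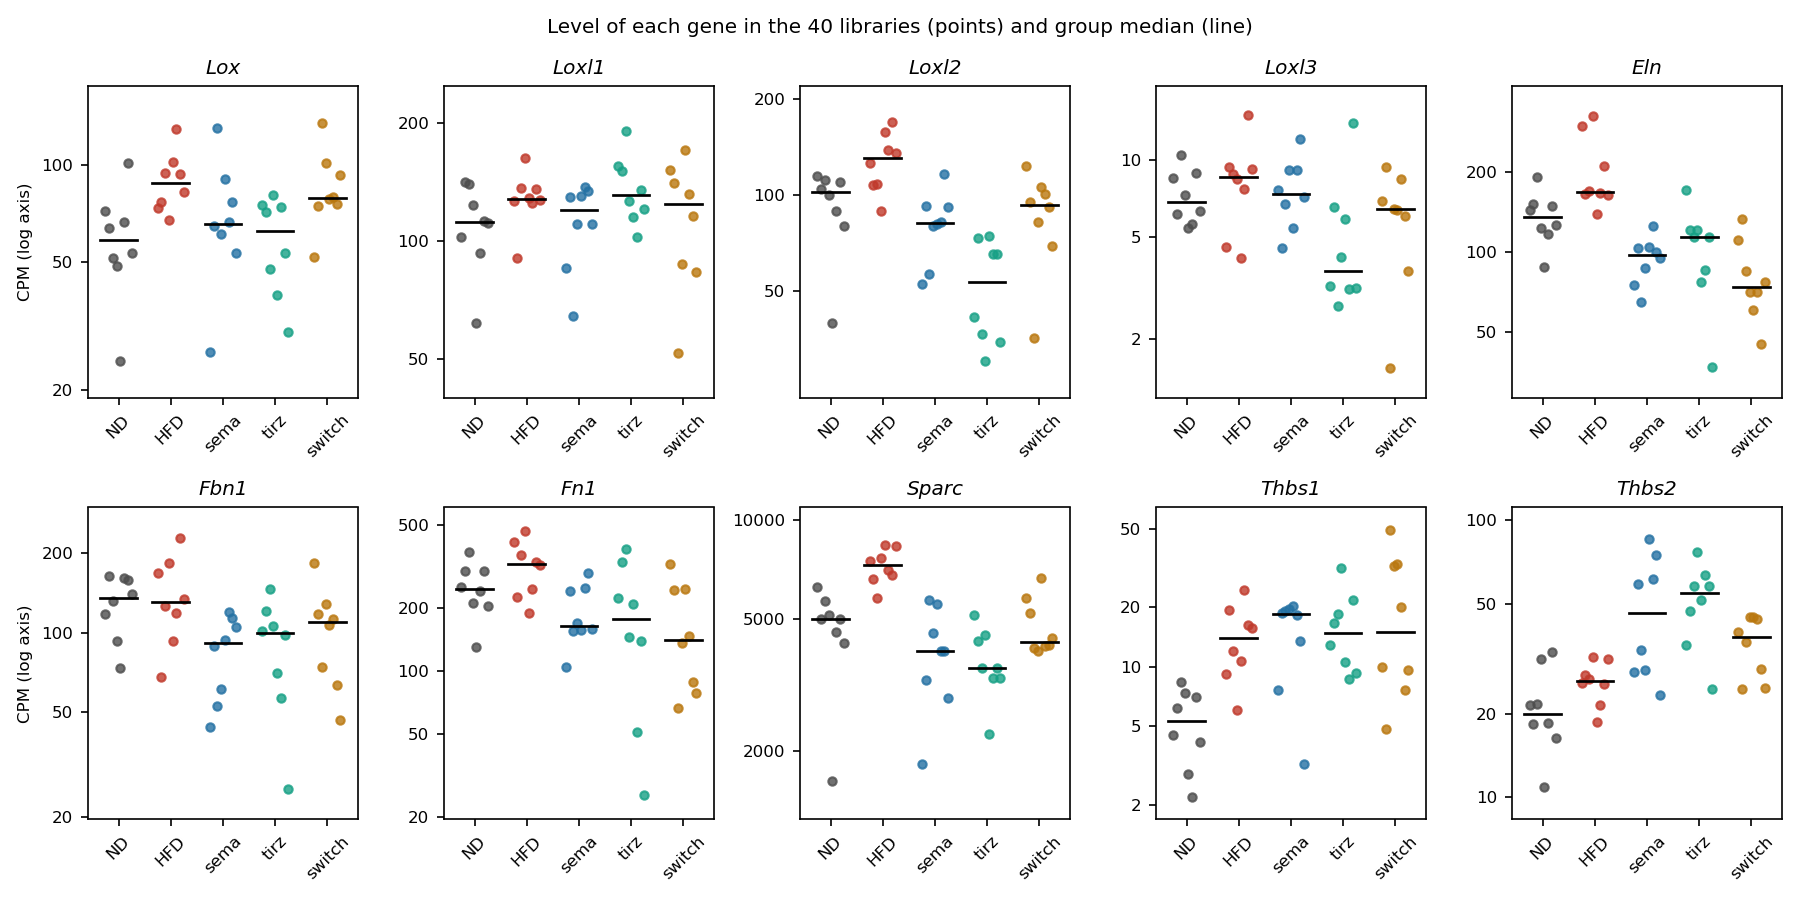
Level of each of the 10 genes in CPM (vertical log axis, scaled to each gene) in the 5 groups (horizontal axis), with 8 libraries per group as points and the median as a line. HFD has the highest median for Sparc, Eln and Loxl2, among others, and ND the lowest for Lox, Loxl1, Thbs1 and Thbs2.

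**Figure D2:**
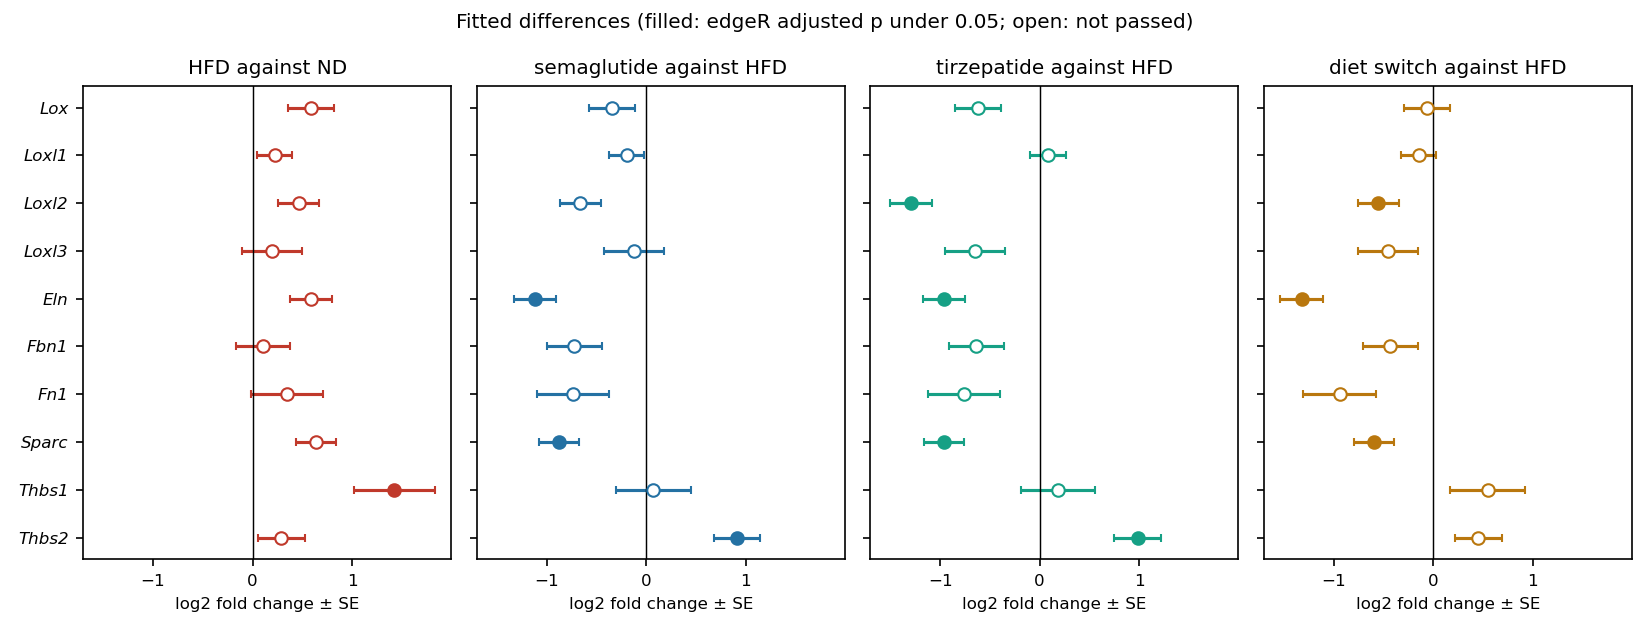
Fitted log2 fold change (horizontal axis) with its SE for the 10 genes (vertical axis) in 4 comparisons. Filled points passed an edgeR adjusted p of 0.05 and open points did not: 1 gene was called in HFD against ND, 3 with semaglutide, 4 with tirzepatide and 3 after the diet switch against HFD.

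Among the crosslinking enzymes, Loxl2 moved most. Its enzyme carries scavenger receptor domains beside the catalytic domain and can crosslink the collagen IV of basement membranes. Loxl2 (chr14:69609068-69695834, plus strand, GENCODE M21 on GRCm38) ranged from 39.7 to 115 CPM in ND with a median of 102. In HFD it ranged from 89.3 to 169 (median 131), and in tirzepatide from 30.1 to 74.4 (median 53.3). The tirzepatide libraries therefore all lay below every HFD library. Of all tested genes, 2.28% were separated in this direction and 3.62% in either direction. Semaglutide libraries ranged from 52.6 to 116 (median 81.9) and diet-switch libraries from 35.6 to 123 (median 93.3), and both overlapped HFD, although 8 of 8 in each lay below the HFD median.

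Against HFD, Loxl2 fell by 1.29 on the log2 scale with tirzepatide (SE 0.21, edgeR adjusted p = 1.89e-05), to 0.409 of the HFD level. After the switch it fell by 0.55 (SE 0.21, edgeR adjusted p = 0.0444), and that call was lost without diet-switch libraries 3, 4 and 7 (log2 fold change -0.39, edgeR adjusted p = 0.301). It was also lost when any one of 9 libraries was left out (HFD 1, 5, 6, 7 or 8, or diet switch 3, 4, 7 or 8) and with no filter on low counts (edgeR adjusted p = 0.0653). With semaglutide the difference was -0.66 (SE 0.21) and missed the threshold in the full fit (edgeR adjusted p = 0.0554), while it passed without the muscle-high libraries (-0.74, edgeR adjusted p = 0.0171). Tirzepatide libraries also lay lower than ND, by a log2 fold change of -0.83 (SE 0.21, edgeR adjusted p = 0.00875). Without the muscle-high libraries, the tirzepatide fall relative to HFD was -1.56 (edgeR adjusted p = 0.000738). An antisense gene, Gm27177, overlaps Loxl2 exons and held 750 counts over all libraries beside 13509 for Loxl2. Whether the counting used strand is not given in the sources used here, so reads of such pairs cannot be told apart.

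Lox, the founding member of the family, ranged from 24.6 to 102 CPM in ND (median 58.5), 67.3 to 129.9 in HFD (median 88.1), 26.2 to 130.1 with semaglutide (median 65.4), 30.3 to 80.6 with tirzepatide (median 62.3) and 51.7 to 135 after the switch (median 79.1). Every pair of groups overlapped. Its closest approach to a call was the tirzepatide difference of -0.62 from HFD (SE 0.23, edgeR adjusted p = 0.0518), where 8 of 8 libraries lay below the HFD median. That difference passed without the B cell-high libraries (-0.63, edgeR adjusted p = 0.00858) and when any one of 10 libraries was left out. Against ND, HFD was 0.58 higher (SE 0.23, edgeR adjusted p = 0.162) and the diet switch was 0.52 higher (SE 0.23, edgeR adjusted p = 0.12), neither of them called.

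Loxl1, which acts in elastic fibre renewal (chr9:58287738-58313186, minus strand), showed no call in any comparison. Group medians ran from 112 CPM in ND through 120.3 with semaglutide, 124 after the switch and 128 in HFD to 131 with tirzepatide. The lowest and highest libraries of all were diet switch 3 at 51.7 and tirzepatide 3 at 192. The interval of the tirzepatide difference from HFD, -0.28 to 0.45 on the log2 scale at 95% confidence, covered both directions.

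Loxl3 (chr6:83034173-83052562, plus strand) was the scarcest enzyme by counts, with 6 to 52 per library, and its levels are imprecise. It ranged from 5.43 to 10.5 CPM in ND (median 6.85), 4.15 to 15 in HFD (median 8.63) and 2.71 to 13.9 with tirzepatide (median 3.71). Semaglutide ranged from 4.55 to 12.1 (median 7.41) and the diet switch from 1.54 to 9.45 (median 6.43). Tirzepatide library 7, at 13.9, lay apart from the other 7, of which the highest was 6.57. With all libraries the tirzepatide difference from HFD was -0.65 (SE 0.30, edgeR adjusted p = 0.122), and without library 7 it was -1.01 (edgeR adjusted p = 0.0130). Leaving out the highest tirzepatide library widens the fall by construction, so the second value is no separate support. Library 7 was also among the muscle-high libraries, without which the difference was -1.46 (edgeR adjusted p = 0.0172). Htra2, a gene on the opposite strand with exons overlapping Loxl3, held 88 counts beside 1071 for Loxl3.

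Elastin, the rubber-like core of elastic fibres, was lower than in HFD in each of the 3 intervention groups. Eln (chr5:134702593-134747323, minus strand) ranged from 139 to 325 CPM in HFD (median 168) and from 87.8 to 192 in ND (median 136). It ranged from 64.7 to 125 with semaglutide (median 97.8), 36.9 to 171 with tirzepatide (median 114) and 45.2 to 134 after the switch (median 74.1). Semaglutide and diet-switch libraries all lay below every HFD library, whereas 1 of 8 tirzepatide libraries lay above the HFD median. Such a separation downward was found for 1.02% and 1.64% of all tested genes, and in either direction for 1.19% and 2.54%.

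Against HFD, Eln fell by 1.11 with semaglutide (SE 0.21, edgeR adjusted p = 0.000898), by 0.96 with tirzepatide (SE 0.21, edgeR adjusted p = 0.00104) and by 1.32 after the switch (SE 0.21, edgeR adjusted p = 1.82e-05), to 0.462, 0.512 and 0.400 of the HFD level. All 3 calls held in every alternative run, including without the muscle-high and B cell-high libraries and without diet-switch libraries 3, 4 and 7. The HFD difference from ND was 0.58 (SE 0.21) and did not pass in the full fit (edgeR adjusted p = 0.111). It passed in a fit of only these 2 groups (edgeR adjusted p = 0.0380). Diet-switch libraries were lower than ND as well (log2 fold change -0.74, SE 0.21, edgeR adjusted p = 0.016), but not without libraries 3, 4 and 7 (-0.59, edgeR adjusted p = 0.226). Genes of mural cells, the smooth muscle cells and pericytes of vessels, which can make elastin, had median log2 fold changes against HFD of -0.28, -0.59 and -0.15 over 7 genes, of which 1, 2 and 1 were called lower and 0 higher. Their summed level ranged from 654 to 1019 CPM in HFD and from 268 to 1243 in ND. The range was 298 to 814 for semaglutide, 262 to 534 for tirzepatide and 360.03 to 702 in diet-switch libraries. Acta2 and Rgs5 weigh most in this sum, at medians of 231 and 195 CPM over all libraries. By mean log2 CPM of the 7 genes, every group overlapped HFD. Group medians of that mean were 5.00 for HFD, 4.91 for semaglutide, 5.00 for tirzepatide, 4.96 for diet-switch and 5.30 for ND libraries. The part of the mural genes in the Eln result was not tested.

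Fbn1 (chr2:125300594-125507993, minus strand) encodes fibrillin-1, whose carboxy-terminal fragment is released as the hormone asprosin. Its median was 136 CPM in ND (73.8 to 164), 130.5 in HFD (68.0 to 229.6), 91.7 with semaglutide (43.9 to 120.0), 99.7 with tirzepatide (25.6 to 146) and 109.6 after the switch (46.6 to 184). The ranges overlapped throughout and no comparison was called. The differences from HFD were -0.72 (SE 0.27, edgeR adjusted p = 0.129) with semaglutide, -0.63 (SE 0.27, edgeR adjusted p = 0.0941) with tirzepatide and -0.43 (SE 0.27, edgeR adjusted p = 0.261) after the switch.

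Fn1 (chr1:71585520-71653200, minus strand), the fibronectin gene, was the most variable gene with tirzepatide, where libraries ranged from 25.4 to 385 CPM (median 177). ND libraries ranged from 129.8 to 373 (median 246), HFD from 189 to 467 (median 326), semaglutide from 105 to 295 (median 164) and the diet switch from 66.4 to 325 (median 141). The differences from HFD were similar in size but were not called in the full fit: -0.74 with semaglutide (SE 0.36, edgeR adjusted p = 0.255), -0.76 with tirzepatide (SE 0.36, edgeR adjusted p = 0.135) and -0.94 after the switch (SE 0.36, edgeR adjusted p = 0.0554). The last passed when any one of 7 libraries was left out and with DESeq2 (adjusted p = 0.0444). Tirzepatide library 8, the lowest for Fn1, was also the lowest of its group for Lox, Eln, Fbn1 and Thbs2. In the same library the macrophage genes had their lowest tirzepatide level (5.84 log2 CPM) and so did the stromal progenitor genes (6.58 log2 CPM).

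Sparc (chr11:55394500-55423183, minus strand), a collagen-binding matricellular glycoprotein, was by far the deepest of the 10 genes, with 5640 to 32146 counts per library. It ranged from 1612 to 6269 CPM in ND (median 5009.8) and from 5806 to 8404 in HFD (median 7299). It ranged from 1818 to 5707 with semaglutide (median 4016), 2238 to 5172 with tirzepatide (median 3556) and 4000.2 to 6699 after the switch (median 4284). Neither drug group overlapped HFD, while diet-switch libraries did. Of all tested genes, 1.19% had no overlap between semaglutide and HFD and 3.62% between tirzepatide and HFD.

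Sparc fell relative to HFD by 0.87 with semaglutide (SE 0.20, edgeR adjusted p = 0.00593) and by 0.96 with tirzepatide (SE 0.20, edgeR adjusted p = 0.000591), to 0.546 and 0.514 of its level. Both calls held in every alternative, with values of -0.79 and -0.97 without the B cell-high libraries. The fall of 0.60 after the switch (SE 0.20, edgeR adjusted p = 0.0254) was lost without libraries 3, 4 and 7 (-0.47, edgeR adjusted p = 0.222), without library 3 or 4 alone, and without the muscle-high libraries (-0.56, edgeR adjusted p = 0.126). HFD was 0.63 higher than ND (SE 0.20, edgeR adjusted p = 0.0578), and this passed without the B cell-high libraries (0.51, edgeR adjusted p = 0.0370), a set that includes ND library 5, where Sparc was lowest. ND library 5 was the lowest of its group for 9 of the 10 genes, all except Thbs1.

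By mean log2 CPM, the thrombospondins had their lowest levels in ND, as did Loxl1. HFD was called higher than ND for Thbs1 but not for Thbs2. Thrombospondin-1 can activate latent TGF-beta and binds CD36 and CD47, and thrombospondin-2, also a ligand of both receptors, restrains vessel growth. Thbs1 (chr2:118111876-118127133, plus strand) ranged from 2.20 to 8.36 CPM in ND (median 5.34), 6.01 to 24.6 in HFD (median 13.9), 3.21 to 20.5 with semaglutide (median 18.5), 8.68 to 31.8 with tirzepatide (median 14.8) and 4.84 to 49.5 after the switch (median 15.04). Only the tirzepatide libraries were all above every ND library. Of all tested genes, 0.519% were separated in this direction and 1.49% in either direction. Counts of 7 to 225 per library limit the precision of these levels.

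Thbs1 rose by 1.43 in HFD against ND (SE 0.40, edgeR adjusted p = 0.029), 2.69-fold, in 8 of 8 libraries above the ND median. It was not called between HFD and any intervention group, with differences of 0.07 (SE 0.38), 0.18 (SE 0.38) and 0.55 (SE 0.37) for semaglutide, tirzepatide and the switch. Relative to ND the differences were 1.5 (SE 0.40, edgeR adjusted p = 0.0331), 1.61 (SE 0.40, edgeR adjusted p = 0.00912) and 1.97 (SE 0.40, edgeR adjusted p = 0.00152). Several of these calls lay near the threshold: leaving out each library in turn kept the difference from ND at 1.27 to 1.55 for HFD and at 1.39 to 1.65 for semaglutide, but moved some adjusted p-values past it. The HFD call was lost without the muscle-high libraries (1.36, edgeR adjusted p = 0.0680) and without any one of ND 1, 5, 6 or 8 or HFD 2 or 6, and with no filter on low counts (edgeR adjusted p = 0.0690). The tirzepatide and semaglutide calls against ND were lost without the muscle-high libraries, at 1.00 (edgeR adjusted p = 0.291) and 1.3 (edgeR adjusted p = 0.105), and the semaglutide call also without any one of 9 libraries (ND 1, 2, 6 or 8, or semaglutide 2 to 6) and with no filter (edgeR adjusted p = 0.0868). The diet-switch call against ND was lost without libraries 3, 4 and 7 (1.54, edgeR adjusted p = 0.0554). Against ND, the median log2 fold change of the 9 muscle genes was -3.17 for HFD, -3.40 for semaglutide, -0.25 for tirzepatide and -0.40 for the diet switch, and its part in the Thbs1 differences was not tested.

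Thbs2 (chr17:14665500-14694235, minus strand) was the gene of the 10 called higher with both drugs than in HFD. It ranged from 10.9 to 33.5 CPM in ND (median 20.1), 18.7 to 32.2 in HFD (median 26.3), 23.4 to 85.5 with semaglutide (median 46.4), 24.6 to 76.9 with tirzepatide (median 54.8) and 24.7 to 44.7 after the switch (median 38.0). The drug groups overlapped HFD at their low ends, with 7 of 8 libraries above the HFD median in each.

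Thbs2 rose over HFD by 0.91 with semaglutide (SE 0.23, edgeR adjusted p = 0.0143), 1.88-fold, and by 0.98 with tirzepatide (SE 0.23, edgeR adjusted p = 0.00212), 1.98-fold. After the switch the difference was 0.45 (SE 0.23, edgeR adjusted p = 0.154), not called in the full fit. It passed in a fit of only these 2 groups (0.46, edgeR adjusted p = 0.0424). The semaglutide call held in every alternative, including without the B cell-high libraries (1.22, edgeR adjusted p = 0.000458). The tirzepatide call was lost without the muscle-high libraries (0.93, edgeR adjusted p = 0.0869), with 3 tirzepatide libraries left. Over ND, Thbs2 rose by 1.20 (SE 0.24, edgeR adjusted p = 0.00104), 1.27 (SE 0.24, edgeR adjusted p = 0.000416) and 0.74 (SE 0.24, edgeR adjusted p = 0.0281) in the semaglutide, tirzepatide and diet-switch groups. Without the muscle-high libraries the tirzepatide and diet-switch calls were lost (1.09, edgeR adjusted p = 0.0922, and 0.55, edgeR adjusted p = 0.263). The diet-switch call was also lost without libraries 3, 4 and 7 (0.72, edgeR adjusted p = 0.187) and when any one of 6 libraries (ND 2 or 5, diet switch 3, 4, 5 or 6) was left out, and with no filter (edgeR adjusted p = 0.0539).

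Counted against ND, 2 genes were called with semaglutide (Thbs1 and Thbs2, both higher, against 2.64% of all tested genes), 3 with tirzepatide (Thbs1 and Thbs2 higher, Loxl2 lower, against 10.1%) and 3 after the switch (Thbs1 and Thbs2 higher, Eln lower, against 14.8%). Ordered by mean log2 CPM, Thbs2 ran from tirzepatide through semaglutide, the diet switch and HFD to ND, and Thbs1 from the diet switch through tirzepatide, semaglutide and HFD to ND. HFD was the highest group for the other genes except Loxl1, which was highest with tirzepatide. Of the neighbours in these orders, HFD and ND differed for Thbs1, while no other neighbouring pair of either thrombospondin was called. Among the other 8 genes, the called neighbours were HFD and the diet switch for Sparc and semaglutide and tirzepatide for Loxl2.

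Semaglutide and tirzepatide were compared directly for all 10 genes, with p-values adjusted over all tested genes. Loxl2 alone was called, lower with tirzepatide by 0.63 on the log2 scale (a log2 fold change of -0.63, SE 0.21, edgeR adjusted p = 0.0448), where 10% of all tested genes were called. The call was lost when any one of 10 libraries was left out and without the muscle-high libraries, where the difference was -0.83 (edgeR adjusted p = 0.0923), and with no filter (edgeR adjusted p = 0.0711). For Eln the difference was 0.15 with a 95% interval of -0.28 to 0.58, for Sparc -0.09 (-0.49 to 0.32) and for Thbs2 0.07 (-0.39 to 0.53), so that differences of either sign remain within the intervals. Doses and durations are not given in the labels, so the drugs cannot be matched for exposure. Between semaglutide and the diet switch, 0 genes of the 10 were called by edgeR, 0 had an unadjusted p under 0.05 and 0 were called by DESeq2 (13.3% of all tested genes called by edgeR). Between tirzepatide and the diet switch, 0 were called by edgeR, 3 had an unadjusted p under 0.05 and 1 was called by DESeq2 (0.399% of all tested genes called by edgeR), and that gene was Loxl2 (-0.74, adjusted p = 0.0368).

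Within groups, most of the 10 genes varied together across the 40 libraries. Each group's mean log2 CPM was subtracted first, so these relations use differences between libraries of a group. Of 45 gene pairs, 40 had a positive Pearson r, with a median of 0.358, and 16 had an adjusted permutation p under 0.05, all positive (100000 permutations within groups, 135 relations adjusted together). The closest pair was Fbn1 and Fn1, with r = 0.822 and Spearman's rho = 0.733 (permutation p = 1e-05 for each, the smallest the permutations can give, adjusted 0.000169 and 0.00027). Its r was 0.750 without the 2 libraries farthest from the median of Fbn1. Eln followed Fbn1 with r = 0.723 and rho = 0.695 (permutation p = 1e-05 for each, adjusted 0.000169 and 0.00027), and r = 0.645 without the 2 farthest.

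Thbs1 and Thbs2 were related to each other, with r = 0.522 and rho = 0.497 (permutation p = 0.00048 and 0.00221, adjusted 0.0045 and 0.0186), and r = 0.423 without the 2 farthest libraries. Lox and Sparc had r = 0.621 and rho = 0.368 (permutation p = 0.00084 and 0.0275, adjusted 0.00667 and 0.1). That r was 0.352 without the 2 farthest libraries, so this relation rests largely on them. Across marker lists, Fn1 was tied to the stromal progenitor genes (r = 0.870, rho = 0.842, permutation p = 1e-05 for each, adjusted 0.000169 and 0.00027) and r = 0.838 without the 2 farthest. Fn1 also followed the macrophage genes with r = 0.836 and rho = 0.747 (permutation p = 1e-05 for each, adjusted 0.000169 and 0.00027), and r = 0.784 without the 2 farthest. Sparc followed the adipocyte genes, with r = 0.703 and rho = 0.520 (permutation p = 0.00023 and 0.00163, adjusted 0.00239 and 0.0147), and r = 0.474 without the 2 farthest. With the stromal progenitor and mural genes Sparc had r = 0.440 and 0.402 (adjusted permutation p = 0.0304 and 0.0312). By rho the adjusted permutation p of these 2 relations was 0.117 and 0.105. Eln followed the mural genes, markers of smooth muscle and pericytes, with r = 0.619 and rho = 0.555 (permutation p = 0.00018 and 0.0006, adjusted 0.00202 and 0.00675), and r = 0.545 without the 2 farthest. This was not particular to mural genes. Eln was tied almost as closely to the stromal progenitor genes (r = 0.599, rho = 0.490, adjusted permutation p = 0.0045 and 0.0247). For macrophage and adipocyte genes r was 0.494 and 0.397 (adjusted permutation p = 0.0312 and 0.0308).

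**Figure D3:**
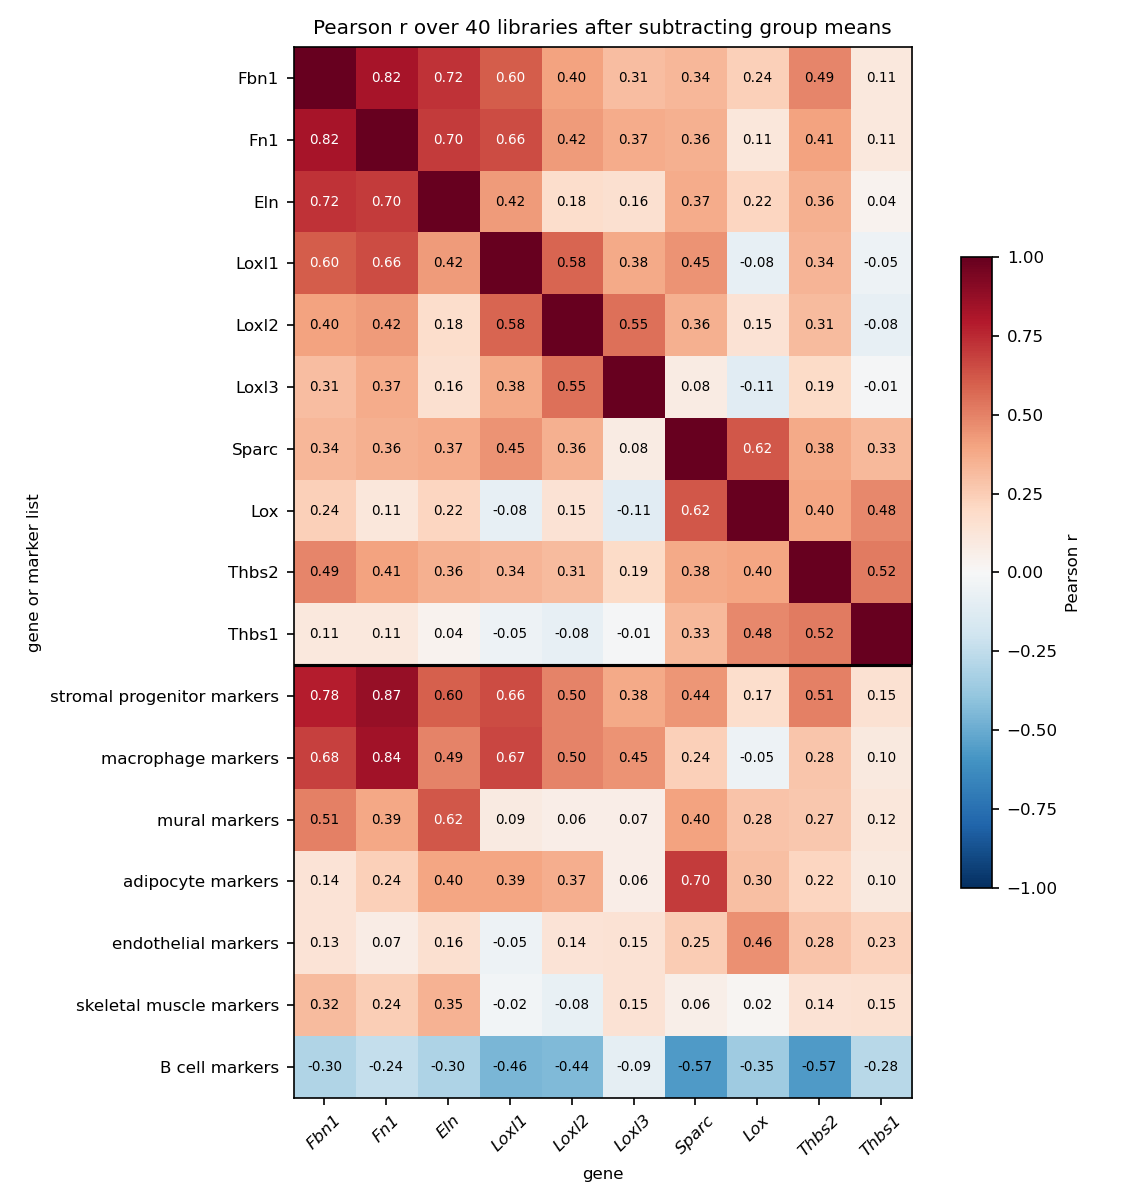
Pearson r over the 40 libraries, after group means were subtracted, for each pair of the 10 genes (upper block) and for each gene (horizontal axis) with 7 marker lists (lower block), on a colour scale from -1 to 1. Fbn1, Fn1 and Eln form the darkest block (0.70 to 0.82), and the stromal progenitor and macrophage rows are darkest for Fn1 (0.87 and 0.84).

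Other genes of the same pathways were counted from 6 lists of 99 genes. None of the 10 genes is in these lists. Among 14 tested genes of collagen and elastin processing, 1 was called higher in HFD than in ND, as were 2.83% of all tested genes. Against HFD, 3, 4 and 7 were called lower with semaglutide, tirzepatide and the switch, with 0 higher (median log2 fold changes -0.41, -0.31 and -0.39). Of all tested genes, 2.63%, 10.7% and 10.9% were called lower in these comparisons and 1.52%, 9.79% and 12.8% higher, and the counts for the lists below are read against these shares. Without the muscle-high libraries 3, 2 and 3 of 16 processing genes were called lower, without the B cell-high libraries 1, 6 and 7 of 14, and without diet-switch libraries 3, 4 and 7 the count after the switch was 2 of 15. The call in HFD against ND was lost without each set. The shares of all genes called lower were 2.47%, 3.27% and 6.86% without the muscle-high libraries, and 3.66% after the switch without diet-switch libraries 3, 4 and 7. Without the B cell-high libraries they were 1.73%, 11.8% and 12.5%. Plod3, a lysyl hydroxylase that prepares collagen for crosslinking, fell in all 3 groups, with log2 fold changes of -0.87 (SE 0.18), -0.73 (SE 0.18) and -0.66 (SE 0.18), though the tirzepatide call was lost without the muscle-high libraries (edgeR adjusted p = 0.109). Serpinh1, the collagen chaperone HSP47, fell by 1.28 with tirzepatide (SE 0.23, edgeR adjusted p = 7.96e-05). Pcolce2, an enhancer of procollagen processing, fell by 1.01 (SE 0.30) with tirzepatide and by 1.24 (SE 0.30) after the switch. These calls were lost without the muscle-high libraries (tirzepatide, edgeR adjusted p = 0.157) and without diet-switch libraries 3, 4 and 7 (the switch, edgeR adjusted p = 0.0822). The lysyl hydroxylase gene Plod2 was higher than ND in the 3 intervention groups, by 1.16 (SE 0.29), 1.12 (SE 0.29) and 1.53 (SE 0.29), and the calls for the 2 drugs were lost without the muscle-high libraries (edgeR adjusted p = 0.0819 and 0.114).

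Of 14 tested elastic fibre and microfibril genes, 0 were called by edgeR in HFD against ND (3 had an unadjusted p under 0.05, and DESeq2 called 2), and 1, 1 and 4 were called lower than HFD with semaglutide, tirzepatide and the switch, against 2.63%, 10.7% and 10.9% of all genes. The tirzepatide count was thus near the share of all genes. After the switch 1 was called higher, against 12.8%, and the lower count was 3 of 15 without the muscle-high, 7 of 15 without the B cell-high libraries and 1 of 15 without diet-switch libraries 3, 4 and 7. Without the B cell-high libraries 2 were called lower with tirzepatide and 2 were called higher in HFD than in ND. Of all genes in that fit, 12.5% were called lower after the switch, 11.8% lower with tirzepatide and 2.79% higher in HFD than in ND. Ltbp3, which tethers latent TGF-beta to the matrix, fell in the 3 groups, with log2 fold changes of -0.88 (SE 0.20), -1.09 (SE 0.21) and -0.72 (SE 0.20), the last lost without the muscle-high libraries (edgeR adjusted p = 0.0577) and without diet-switch libraries 3, 4 and 7 (edgeR adjusted p = 0.155). Its relative Ltbp4, which also assists elastin assembly, fell by 1.22 after the switch (SE 0.28), while Efemp1, which encodes fibulin-3, rose by 1.00 (SE 0.25). Of 17 tested matricellular genes, 2 were called higher in HFD than in ND (Ccn1 by 1.56, SE 0.32, and Postn by 1.46, SE 0.35), against 2.83% of all genes. With semaglutide 0 were called against HFD by edgeR or DESeq2 and 4 had an unadjusted p under 0.05, with tirzepatide 5 fell and 1 rose, and after the switch 3 fell and 2 rose. The shares of all genes were 10.7% lower and 9.79% higher with tirzepatide, and 10.9% lower and 12.8% higher after the switch, so the switch counts were near them. With the muscle-high libraries left out, 3 of 18 fell and 0 rose with tirzepatide. Without diet-switch libraries 3, 4 and 7, 1 of 17 fell and 1 rose after the switch. Without the B cell-high libraries, 0 of 17 had an unadjusted p under 0.05 with semaglutide against HFD. In that fit 5 fell and 1 rose with tirzepatide, 3 fell and 2 rose after the switch, and 3 were higher in HFD than in ND. With tirzepatide, Ccn1 and Ccn2, which encode the matricellular proteins CYR61 and CTGF, fell, with log2 fold changes of -2.03 (SE 0.32) and -2.05 (SE 0.46), and the calcium-binding matricellular gene Smoc2 fell by 1.33 (SE 0.22).

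Of 15 tested TGF-beta pathway genes, 1, 3 and 5 were called lower than HFD with semaglutide, tirzepatide and the switch and 1, 0 and 0 higher, where 2.63%, 10.7% and 10.9% of all genes were lower and 1.52%, 9.79% and 12.8% higher. Without the muscle-high libraries 1, 2 and 2 were lower, and without diet-switch libraries 3, 4 and 7 1 was lower after the switch. Without the B cell-high libraries 1, 3 and 5 were lower and 0, 0 and 0 higher. Tgfb3, which encodes a TGF-beta ligand, fell by 1.04 with tirzepatide (SE 0.26, edgeR adjusted p = 0.00311) and by 0.84 after the switch (SE 0.25, edgeR adjusted p = 0.0141), the latter lost without the muscle-high libraries (edgeR adjusted p = 0.108) and without diet-switch libraries 3, 4 and 7 (edgeR adjusted p = 0.241). The type II receptor gene Tgfbr2 fell by 0.73 with tirzepatide (SE 0.22, edgeR adjusted p = 0.0137), but not without the muscle-high libraries (-0.86, edgeR adjusted p = 0.0529). With semaglutide the type I receptor gene Tgfbr1 rose over HFD by 0.67 (SE 0.20, edgeR adjusted p = 0.0416), a call lost without the muscle-high (edgeR adjusted p = 0.105) and without the B cell-high libraries (edgeR adjusted p = 0.214). Of 12 tested receptors of fibronectin and thrombospondins, 0, 2 and 2 were called lower than HFD and 0, 0 and 1 higher by edgeR, and with semaglutide 3 had an unadjusted p under 0.05 and DESeq2 called 0. Against the same shares of all genes, the receptor counts were near the share called lower with tirzepatide and after the switch. The lower counts were 0, 1 and 2 of 13 without the muscle-high libraries, 0, 2 and 3 of 12 without the B cell-high libraries, and without diet-switch libraries 3, 4 and 7 1 of 12 after the switch. Of all genes, 2.47%, 3.27% and 6.86% were called lower without the muscle-high libraries. Without the B cell-high libraries these shares were 1.73%, 11.8% and 12.5%. Itgb1, the integrin beta-1 chain that forms the main fibronectin receptor, fell by 0.85 (SE 0.17) with tirzepatide and by 0.92 (SE 0.17) after the switch, and the thrombospondin receptor gene Cd47 rose by 0.48 (SE 0.16) after the switch, but was not called without the muscle-high libraries (edgeR adjusted p = 0.147). Of 16 tested proteases and inhibitors, 2, 2 and 1 were called lower than HFD and 0, 1 and 2 higher, which for tirzepatide and the switch was near the shares of all genes. The counts were 2, 0 and 0 lower and 1, 1 and 2 higher without the muscle-high libraries, without the B cell-high libraries 1, 3 and 1 were lower and 1, 2 and 2 higher, and without diet-switch libraries 3, 4 and 7 edgeR called 0 after the switch, where 4 had an unadjusted p under 0.05. Of all genes, 0.836%, 3.42% and 8.22% were called higher without the muscle-high libraries. Without the B cell-high libraries these shares were 0.773%, 10.5% and 13.1%. In HFD against ND, 1 of the 16 was called higher and 2 lower, where 2.83% of all genes were higher and 1.68% lower. Adam12, a metalloprotease, rose by 1.59 (SE 0.32) in HFD against ND. Against HFD it fell by 1.97 (SE 0.33) with semaglutide and by 1.46 (SE 0.32) with tirzepatide. Its tirzepatide call was lost without the muscle-high libraries (edgeR adjusted p = 0.0522).

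**Figure D4:**
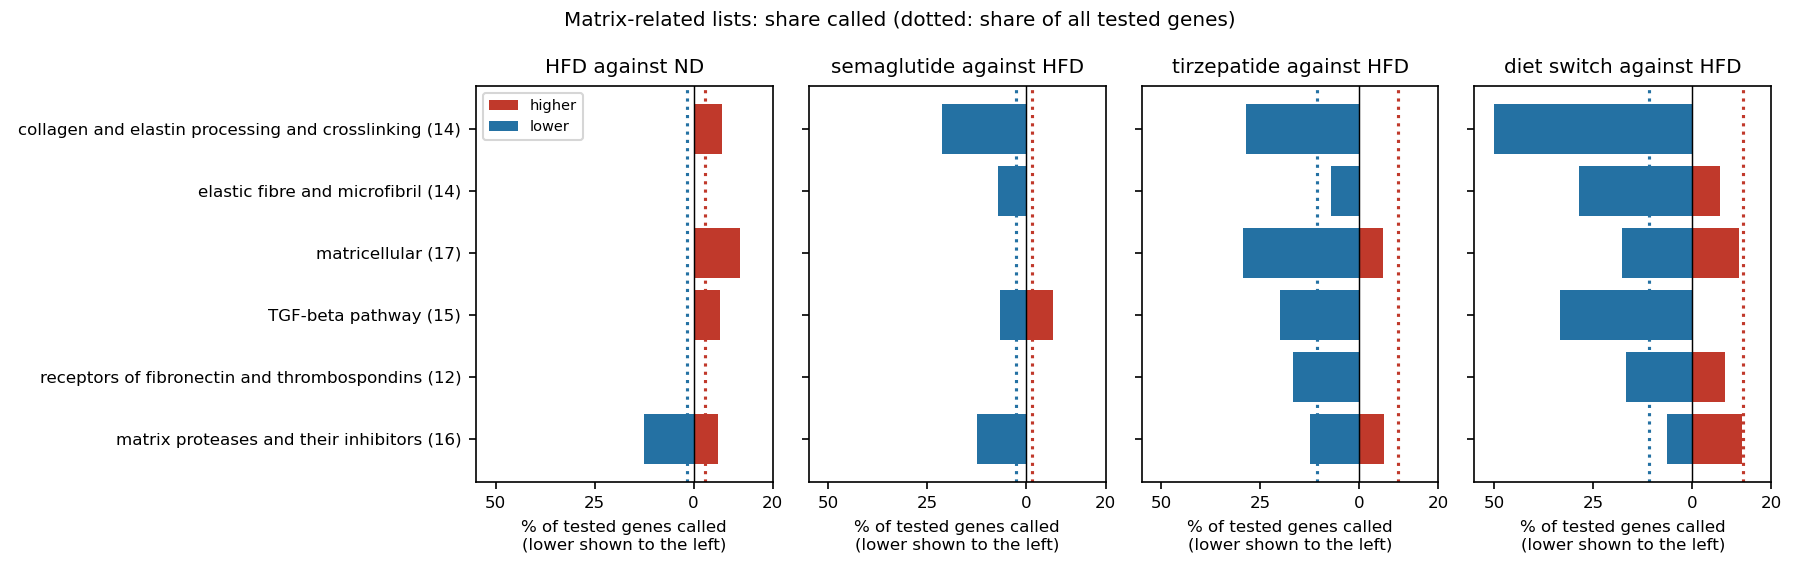
Share of tested genes (horizontal axis, percent; higher to the right, lower to the left) called in each of 6 matrix-related lists in 4 comparisons, with dotted lines at the share of all 15807 tested genes. Among collagen and elastin processing genes, 7 of 14 were called lower than HFD after the diet switch, beside 10.9% of all tested genes.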

How the data were processed

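Counts of 3' tag reads per gene were deposited by the authors for 40 libraries, made with a QuantSeq kit per the labels' protocols. The submitters' processing notes name mm10 as the genome build, with the aligner, counter and annotation not given in the sources used here. A second deposited table of normalized values was not used here; 16 of its columns matched no sample. The raw counts were fitted with edgeR 4.0.16 (limma 3.58.1, R 4.3.3): filterByExpr (minimum count 10, minimum total 15), TMM factors, and quasi-likelihood F-tests over 5 groups, with Benjamini-Hochberg adjustment over 15807 genes and calls at 0.05. The tested genes held 99.39% of counts. CPM used TMM-scaled library sizes, and log2 CPM a prior count of 2. Intervals used the SE and 35 residual degrees of freedom. No 2 libraries of a group agreed within sampling noise (smallest chi-square per degree of freedom 3.99). The 10 genes are all named, and from each list up to 4 called genes with the smallest adjusted p. Some genes that this rule selects are not reported here. The genes and lists were chosen with earlier results of these data known. The alternatives were DESeq2 1.42.0, its size factors, no filter, fits of only 2 groups, a replicate block and leaving out libraries. Fits were tested on simulated data. Library numbers run by group, so processing order and group cannot be told apart. Positions are from GENCODE M21 on GRCm38.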

Additional observations from a re-analysis of the deposited data

Results flagged for a closer look

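Of 50 groups of 8 libraries (10 genes in 5 groups), 3 held a library far from the other 7, and chance flags about 1 group in 20. Loxl2 was 39.7 CPM in ND library 5, where the next lowest ND library was at 79.8. Sparc was 1612 CPM in the same library, where the next lowest was at 4243. B cell genes averaged 6.46 log2 CPM and adipocyte genes 10.07 log2 CPM there, the highest and the lowest of the ND group, and the part of either in these values was not tested. Loxl3 was 13.9 CPM in tirzepatide library 7, where the next highest was at 6.57, and skeletal muscle genes averaged 7.64 log2 CPM in that library, the highest of its group. The part of these genes in the value was not tested.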

How the results depend on the processing

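No called value of the 10 genes changed direction in any alternative. Calls were gained with DESeq2 for Sparc in HFD against ND (adjusted p = 0.0229), Loxl2 with semaglutide (0.0311) and Lox with tirzepatide (0.0437) against HFD. Over all tested genes, the full fit called 712 genes in HFD against ND; 656, 3246 and 3759 for semaglutide, tirzepatide and the diet switch against HFD; 417, 1591 and 2338 for these against ND; 1584 for tirzepatide against semaglutide; 2101 for semaglutide against the switch; and 63 for tirzepatide against the switch. In that order of comparisons, leaving out each library in turn gave 0 to 2, 3 to 4, 4 to 5, 1 to 4, 1 to 2, 3 to 3, 2 to 4, 0 to 1, 0 to 0 and 0 to 1 calls among the 10 genes, and 541 to 778, 437 to 895, 2529 to 3442, 2849 to 4312, 256 to 853, 1046 to 1797, 1321 to 3075, 1087 to 1778, 1367 to 2797 and 35 to 357 over all genes. DESeq2 called 2 of the 10 in HFD against ND, 1 in tirzepatide against the switch, 1023 genes in semaglutide against HFD and 235 in tirzepatide against the switch. With no filter, semaglutide against ND had 1 of the 10 and 267 genes, and tirzepatide against semaglutide 0 of the 10 (in the full fit, 1 had passed). Fits of only 2 groups gave 3 of the 10 in HFD against ND and 5 of the 10 in the switch against HFD. In semaglutide against HFD they gave 5 of the 10 and 1013 genes. They gave 1470, 1213 and 1 genes in the switch against ND, semaglutide against the switch and tirzepatide against the switch. Gained calls in HFD against ND were Eln and Sparc (edgeR adjusted p = 0.0380 and 0.0360). Against HFD they were Loxl2 and Fn1 with semaglutide (edgeR adjusted p = 0.0109 and 0.0259) and Lox with tirzepatide (0.0150). After the switch they were Fn1 and Thbs2 (edgeR adjusted p = 0.0296 and 0.0424). Replicate numbers were not used to pair libraries in the main fit, as the labels name no batch. The mean r of deviations was 0.0620 for the same number and -0.00708 for others, and 11 of 40 libraries matched best with their own number. These values do not show that libraries of the same number are unrelated. With the replicate block, tirzepatide against the switch called 99 genes, and calls were gained against HFD for Loxl2 with semaglutide (-0.66, adjusted p = 0.0418) and Fn1 after the switch (-1.01, adjusted p = 0.0479). Other counts under the block stayed within 1.5 times. The next alternatives were chosen after seeing the data. Without the 11 muscle-high libraries, the 10 genes had 0 calls in HFD against ND, 1 in semaglutide against ND, 1 in tirzepatide against ND and 0 in tirzepatide against semaglutide. All genes had 1145 calls in tirzepatide against HFD, 332 in tirzepatide against ND, 225 in tirzepatide against semaglutide and 1 in tirzepatide against the switch. Without the 4 B cell-high libraries, the 10 genes had 2 calls in HFD against ND, 1 in semaglutide against the switch and 1 in tirzepatide against the switch, and all genes had 412 in semaglutide against HFD, 959 in tirzepatide against semaglutide, 1230 in semaglutide against the switch and 123 in tirzepatide against the switch. Without diet-switch libraries 3, 4 and 7, the 10 genes had 1 call in the switch against HFD, 0 in the switch against ND and 1 in tirzepatide against the switch, and all genes had 1148, 112, 276 and 347 in the switch against HFD, the switch against ND, semaglutide against the switch and tirzepatide against the switch. These fits hold fewer libraries. The last also leaves out the diet-switch libraries farthest from HFD and ND on the first principal component, which favours fewer calls for the switch against those groups. Beyond that the cause was not tested. Depth limits Loxl3 and Thbs1 most, at 6 to 52 and 7 to 225 counts per library.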

Other observations

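For each of the 10 genes, up to 3 genes most like it were taken by Pearson r over 40 libraries after group means were subtracted, among 7259 genes averaging 4 log2 CPM or more. These are descriptions, without a test. Fn1 was closest to Timp2 (0.924), an inhibitor of metalloproteases, followed by the fibril-associated collagen gene Col14a1 (0.914) and Retnla (0.883). Fbn1 was also closest to Col14a1 (0.900), then Lpar1 (0.835) and Myof (0.834). Loxl1 was closest to the stromal marker Cd248 (0.831), the fibrillar collagen gene Col1a1 (0.823) and Creb3l1 (0.807). Sparc was closest to Col4a2 (0.852), a basement membrane collagen, then Serpina3c (0.803) and the caveolae gene Cavin1 (0.796). Eln was closest to Scara3 (0.830), Camk2n1 (0.815) and the laminin gene Lamb2 (0.801).

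Lox was closest to Crtac1 (0.835), Npr3 (0.825) and Slc5a3 (0.799), and Loxl2 to the transcription factor gene Maf (0.796), the protease inhibitor gene Cst3 (0.789) and the protease gene Ctsk (0.769). The scarce Loxl3 had weaker neighbours, Cd9 (0.592), Gtf3c4 (0.577) and Plau (0.567). Thbs1 was closest to Alg11 (0.657) and the metallothionein gene Mt2 (0.640), and Thbs2 to the fibulin gene Fbln2 (0.717), Fam124a (0.663) and Plpp3 (0.654). B cell genes had r = -0.566 and rho = -0.474 with Thbs2 (permutation p = 0.00622 and 0.00824, adjusted 0.0308 and 0.0463), and r = -0.453 without the 2 farthest libraries. This was not particular to Thbs2. Loxl1, Loxl2 and Eln had r = -0.455, -0.438 and -0.305 with B cell genes (adjusted permutation p = 0.0304, 0.0333 and 0.0336). By rho their adjusted permutation p was 0.202, 0.397 and 0.098. Sparc had r = -0.568 (adjusted permutation p = 0.0553).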
